A study of Homo sapiens with 4 samples.

Results

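A set of 10 genes that mark the epithelial and the mesenchymal state was followed by gene symbol in messenger RNA counts of the gastric cancer line SNU638, an established human line, and all 10 were found among the 46427 genes listed. They are the adhesion genes CDH1 and EPCAM and the regulators GRHL2 and ESRP1 of the epithelial state, the regulators ZEB1 and SNAI2 and the adhesion and structural genes CDH2, VIM and FN1 of the mesenchymal state, and the hyaluronan receptor gene CD44, which is found in both. The cells carried a control vector or a vector that overexpressed YTHDF1, a reader of N6-methyladenosine in RNA, with 2 biological replicates of each. All 4 libraries came from cells kept for 24 h in serum-free medium and then given IFN‐γ at 10 ng/ml, so no untreated cells were measured. The labels give 8 h of IFN‐γ and the study's figure legends give 24 h. The study's methods describe plasmids brought in by transfection, and the share of cells that took up the vector in these libraries is not given in the sources used here.

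In an epithelium, E-cadherin (CDH1) joins neighbouring cells and is held to the actin skeleton through the catenins. In the epithelial to mesenchymal transition, transcription factors such as ZEB1 and SNAI2 repress CDH1 and other epithelial genes, the cells lose their junctions, and vimentin (VIM), N-cadherin (CDH2) and fibronectin (FN1) are gained. GRHL2, a grainyhead family factor, holds the epithelial program in place and stands in mutual repression with ZEB1, and ESRP1 is a splicing factor that keeps epithelial isoforms of transcripts such as CD44 and CTNND1. The counts are per gene, so isoforms were not measured here.

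The labels were checked first on YTHDF1, which had 82.2 and 80.3 CPM (counts relative to the library size as scaled by TMM) in the control libraries of replicates 1 and 2, and 16494 and 2628 CPM in the YTHDF1 libraries. Total counts were between 57398137 and 60864942 per library. The libraries fell together by replicate number and not by vector. Across 17781 genes, which are not independent replicates, Pearson's r of log2 CPM was 0.985 between the vectors within replicate 1 and 0.983 within replicate 2, whereas it was 0.886 across the numbers in control and 0.888 in YTHDF1. The labels do not say what the libraries of a number share. A culture, a day, a library preparation or anything else that a number may stand for cannot be told apart here. Each gene is therefore given by vector and by replicate number. KRT7, KRT8, KRT18 and KRT19, the keratins of simple epithelia, were present in every library, and the summed level of the 6 epithelial markers was 4105 and 3899 CPM in the control and YTHDF1 libraries of replicate 1 and 6485 and 6799 CPM in those of replicate 2. The 6 fibroblast markers, mostly COL1A1, summed to 11.02 and 11.26 CPM in the control and YTHDF1 libraries of replicate 1 and to 6.56 and 6.14 CPM in those of replicate 2. The 4 endothelial markers summed to 0.723 and 0.934 CPM in replicate 1 and to 0.300 and 0.232 CPM in replicate 2. Of these, PECAM1 had 16 and 19 counts and KDR 18 and 22 counts in the control and YTHDF1 libraries of replicate 1. Both had 0 in replicate 2. These 2 of the 3 tested endothelial markers passed the threshold between the numbers as lower, beside 16.2% of all tested genes. The third tested endothelial marker went the other way, with a log2 fold change of 0.30, and did not pass. The defining markers PTPRC, CD3E, PDGFRA, DCN, LUM, THY1 and CDH5 had at most 12 counts in any library.

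On GRCh38.p14, promoter windows from 250 bases before to 50 bases after the RefSeq start were matched for 5 of the 10 genes, namely ZEB1, CDH2, VIM, FN1 and CD44. The windows of 4 genes are shown because their counts set them apart, as ZEB1 was higher in replicate 2, FN1 was lower, CD44 did not pass the threshold and CDH2 had 0 counts. Capitals mark the E-box CACCTG, or CAGGTG on the other strand, the core that ZEB and SNAI factors are known to bind.
ZEB1, chr10:31318167-31318466, plus strand: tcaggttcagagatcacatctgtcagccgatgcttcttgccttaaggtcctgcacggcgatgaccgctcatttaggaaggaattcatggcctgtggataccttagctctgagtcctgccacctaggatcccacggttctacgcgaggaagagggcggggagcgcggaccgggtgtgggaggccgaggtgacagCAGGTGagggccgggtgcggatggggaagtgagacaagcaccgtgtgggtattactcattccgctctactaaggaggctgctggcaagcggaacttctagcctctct
FN1, chr2:215436019-215436318, minus strand: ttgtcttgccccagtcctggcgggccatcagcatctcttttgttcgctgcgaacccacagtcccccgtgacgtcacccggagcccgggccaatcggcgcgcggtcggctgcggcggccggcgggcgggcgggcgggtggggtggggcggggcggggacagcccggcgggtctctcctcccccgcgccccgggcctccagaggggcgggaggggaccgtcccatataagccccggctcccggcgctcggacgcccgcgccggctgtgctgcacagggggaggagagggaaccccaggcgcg
CD44, chr11:35138921-35139220, plus strand: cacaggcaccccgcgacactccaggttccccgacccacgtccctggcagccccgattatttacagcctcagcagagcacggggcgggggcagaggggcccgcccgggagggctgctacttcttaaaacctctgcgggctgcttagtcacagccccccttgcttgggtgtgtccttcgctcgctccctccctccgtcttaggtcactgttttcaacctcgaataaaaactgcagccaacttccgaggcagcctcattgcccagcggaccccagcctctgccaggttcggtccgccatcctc
CDH2, chr18:28177081-28177380, minus strand: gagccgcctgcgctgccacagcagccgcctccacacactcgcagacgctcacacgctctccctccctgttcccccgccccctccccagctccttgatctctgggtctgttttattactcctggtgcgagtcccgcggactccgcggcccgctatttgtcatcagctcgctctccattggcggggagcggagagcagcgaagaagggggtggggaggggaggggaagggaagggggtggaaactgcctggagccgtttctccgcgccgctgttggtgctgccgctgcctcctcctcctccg
The E-box was found once in the ZEB1 window, from base −57 before the start, and in none of the windows of CDH2, VIM, FN1 and CD44. Of 27305 such windows, 20.6% held at least 1. The letters AACCGGTT, which the grainyhead factors are known to favour, were in none of the 5 windows and in 0.117% of all. The share of G and C was 76.7% in FN1, 67.0% in CDH2, 63.3% in CD44, 58.3% in ZEB1 and 48.0% in VIM, against a median of 58.3% over all windows. The start used for ZEB1 and VIM is where RefSeq's extent of the gene begins, and it opens no transcript of GENCODE release 29, whereas the windows of FN1, CD44 and CDH2 run into 11, 5 and 1 of its transcripts. Such matches are a description of letters and not of bound sites.

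The RefSeq table of GRCh38.p14 places CDH1 on chromosome 16 at 68737292 to 68835537, EPCAM on chromosome 2 at 47369311 to 47387020, GRHL2 on chromosome 8 at 101492439 to 101681200 and ESRP1 on chromosome 8 at 94641174 to 94707466. ZEB1 lies on chromosome 10 at 31318417 to 31529804, VIM on chromosome 10 at 17228241 to 17237593, SNAI2 on chromosome 8 at 48917598 to 48921429 and CDH2 on chromosome 18 at 27932879 to 28177130. FN1 lies on chromosome 2 at 215360865 to 215436068 and CD44 on chromosome 11 at 35139171 to 35232402.

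Genes of both states had counts in all 4 libraries, but CDH2 had 0 in each and SNAI2 had 0 in control replicate 2. In CPM, CD44 was above the epithelial adhesion gene EPCAM in every library. Per kilobase of the longest coding transcript of each gene in GENCODE release 29, EPCAM was the highest, from 140.1 to 164.6 CPM per kilobase. Next came CD44 at 50.2 to 57.2 and ESRP1 at 16.3 to 34.1 CPM per kilobase. CDH1 was at 7.09 to 10.8, VIM at 5.87 to 8.75 and GRHL2 at 1.71 to 5.56 CPM per kilobase. ZEB1 was at 1.33 to 2.02 and FN1 at 0.204 to 0.675 CPM per kilobase. The ranges of CDH1 and VIM overlapped, and so did those of GRHL2 and ZEB1. In both libraries of replicate 1 GRHL2 lay above ZEB1, and in both libraries of replicate 2 it lay below. CDH1 likewise lay above VIM in both libraries of replicate 1 and below it in both libraries of replicate 2. The lengths come from another annotation than the counts, so this order is approximate.

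**Figure D1:**
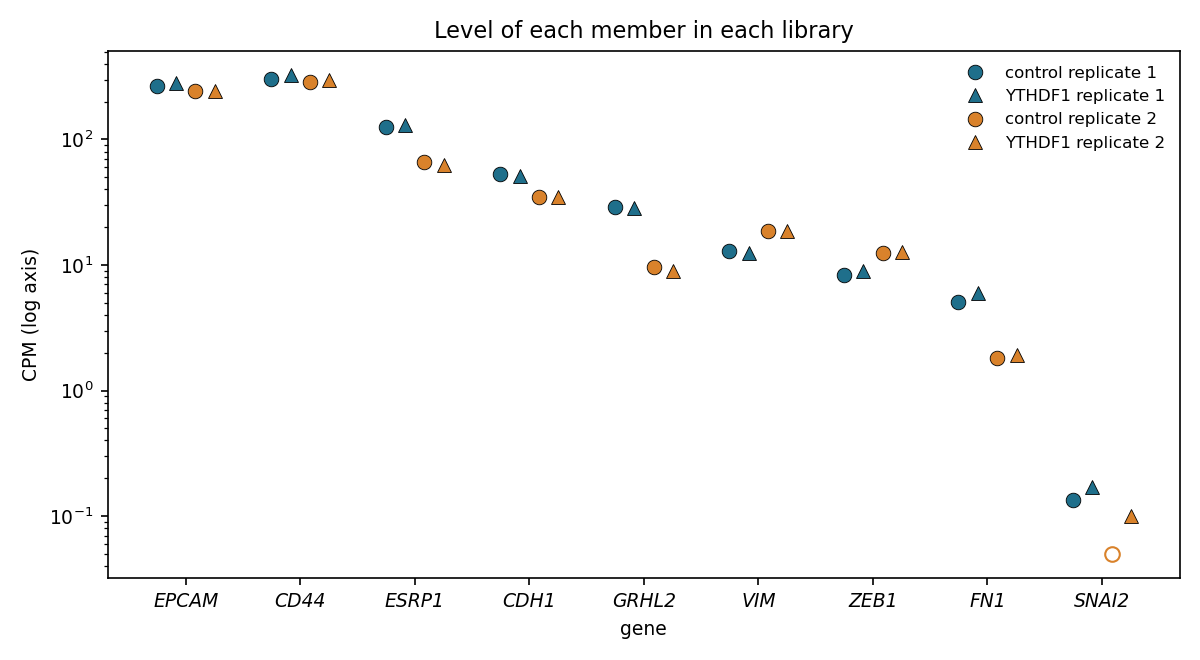
Level of 9 of the 10 genes in each library, as CPM on a log axis, with circles for control, triangles for YTHDF1, blue for replicate 1 and orange for replicate 2. The open circle marks the library in which SNAI2 had 0 counts, drawn at 0.05 CPM, and CDH2 is not drawn because it had 0 counts in all 4 libraries. Blue and orange points separate in ESRP1, CDH1, GRHL2, VIM, ZEB1 and FN1, whereas circles and triangles of one colour lie side by side.

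Between the replicate numbers, 6 of the 8 genes that passed the filter on low counts changed, with GRHL2, ESRP1, CDH1 and FN1 lower and ZEB1 and VIM higher in replicate 2. A change was called where the log2 fold change reached 0.5 in size and the Benjamini-Hochberg adjusted p over all genes was under 0.05, from edgeR's quasi-likelihood test of the 2 libraries numbered 2 against the 2 numbered 1. The same rule called 26.2% of all 17781 genes, 9.96% higher and 16.2% lower, and it called 27.9% with an unadjusted p, by which the same number of members, 6, was called. Without a fold threshold the adjusted p called 7 of the 8, against 52.6% of all tested genes. The share of members called was thus above a background that was itself large. The members were chosen with earlier results of these data known. Their shares and median beside all tested genes are therefore a description and no test of the set. The libraries of the numbers did not overlap in 8 of 8 tested genes, against 77.1% of all tested genes. The genes had a median log2 fold change of −0.38, against −0.012 over all tested genes. As the libraries of a number differ in their vector, the spread in this test holds any effect of the vector. The same 4 libraries serve the comparison of the vectors. The 2 libraries of a number also share whatever the number stands for, so they are not known to be independent replicates. Standard errors and p-values between the numbers therefore measure how closely these libraries agree, and not a spread over independent cultures. Of the 4 keratins, KRT7, KRT8 and KRT18 were higher in replicate 2, with log2 fold changes of 0.92, 0.79 and 1.01, and KRT19 stayed under the fold threshold at 0.36. The summed fibroblast and endothelial markers were lower in replicate 2, and the part of these markers in the results was not tested. In bulk RNA, fewer cells in a state and less RNA per cell cannot be told apart.

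CDH1, which makes E-cadherin, had 52.8 and 51.4 CPM in the control and YTHDF1 libraries of replicate 1 and 34.7 and 35.1 CPM in the control and YTHDF1 libraries of replicate 2. Both libraries of replicate 2 were lower, with a log2 difference of −0.58 (standard error 0.050, edgeR quasi-likelihood adjusted p = 2.13e-05). EPCAM, a surface adhesion protein of epithelial cells, had 265.5 and 283.8 CPM in the control and YTHDF1 libraries of replicate 1 and 243.3 and 241.6 CPM in those of replicate 2. Its libraries did not overlap between the numbers either, but the log2 fold change was −0.18 (standard error 0.041, edgeR quasi-likelihood adjusted p = 0.00570), which is under the fold threshold. The ratio of EPCAM to CDH1 counts was 5.03 and 5.52 in the control and YTHDF1 libraries of replicate 1 and 7.02 and 6.89 in those of replicate 2. The 2 epithelial adhesion genes were therefore not lower to the same degree.

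GRHL2 had the largest log2 fold change in size of the 8 tested genes between the numbers, with FN1 close to it. The 95% interval of FN1, −1.95 to −1.21, holds the value of GRHL2, so the 2 are not ranked. GRHL2 had 29.1 and 28.2 CPM in the control and YTHDF1 libraries of replicate 1, and 9.59 and 8.98 CPM in those of replicate 2. It was 3.09-fold lower in replicate 2, with a log2 difference of −1.63 (standard error 0.073, edgeR quasi-likelihood adjusted p = 3.61e-07) that was −1.60 within control and −1.65 within YTHDF1. ESRP1, the epithelial splicing factor, had 124.9 and 129.7 CPM in the control and YTHDF1 libraries of replicate 1 and 65.7 and 62.1 CPM in those of replicate 2. It was 1.99-fold lower, with a log2 difference of −0.99 (standard error 0.047, edgeR quasi-likelihood adjusted p = 4.70e-07). ESRP2, its paralog, had between 56.7 and 66.2 CPM in the 4 libraries and a log2 fold change of 0.15 (edgeR quasi-likelihood adjusted p = 0.0303), under the fold threshold. The 2 splicing regulators thus differed in opposite directions, and only the difference of ESRP1 passed both thresholds.

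ZEB1, a zinc finger repressor of CDH1, had 8.34 and 8.98 CPM in the control and YTHDF1 libraries of replicate 1, from 496 and 529 counts, and 12.4 and 12.7 CPM in those of replicate 2, from 704 and 765 counts. It was 1.45-fold higher in replicate 2, with a log2 fold change of 0.53 (standard error 0.092, edgeR quasi-likelihood adjusted p = 0.00125). This lies close to the fold threshold, and without control replicate 1 the log2 fold change was 0.48 and the call was lost. ZEB1-AS1, a transcript on the opposite strand that starts beside ZEB1, had between 4.94 and 6.97 CPM and a log2 fold change of 0.37 (edgeR quasi-likelihood adjusted p = 0.0334). SNAI2, which makes the repressor SLUG, had 8 and 10 counts in the control and YTHDF1 libraries of replicate 1 and 0 and 6 in those of replicate 2. It did not pass the filter on low counts, so the fit over all 4 libraries gives no test of it.

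CDH2, which makes N-cadherin, had 0 counts in all 4 libraries, which allows up to 3 counts in each, or between 0.0497 and 0.0529 CPM. N-cadherin message was thus not detected at this depth, in replicate 2 as in replicate 1. VIM had 12.8 and 12.5 CPM in the control and YTHDF1 libraries of replicate 1 and 18.6 and 18.7 CPM in those of replicate 2. It was 1.47-fold higher, with a log2 fold change of 0.56 (standard error 0.073, edgeR quasi-likelihood adjusted p = 2.53e-04). VIM-AS1, on the opposite strand of the same locus, had 312 and 434 counts beside 762 and 738 counts of VIM in replicate 1, and 863 and 866 counts beside 1055 and 1128 counts of VIM in replicate 2. Its log2 fold change was 1.23 (edgeR quasi-likelihood adjusted p = 1.46e-04). The libraries keep strand, but the strand setting of the counting is not given in the sources used here, so reads of VIM and VIM-AS1 may be mixed where they overlap, and the same holds for ZEB1 and ZEB1-AS1.

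FN1, a matrix glycoprotein bound by integrins, went the other way from ZEB1 and VIM. It had 5.11 and 6.01 CPM in the control and YTHDF1 libraries of replicate 1, from 304 and 354 counts, and 1.82 and 1.90 CPM in those of replicate 2, from 103 and 115 counts. It was 2.99-fold lower in replicate 2, with a log2 difference of −1.58 (standard error 0.16, edgeR quasi-likelihood adjusted p = 5.72e-05). Of the mesenchymal members with enough counts, 2 were thus higher and 1 was lower in the libraries in which the epithelial regulators were lower. CD44 had 301.2 and 327.8 CPM in the control and YTHDF1 libraries of replicate 1 and 287.7 and 295.9 CPM in those of replicate 2. Its log2 fold change of −0.11 (95% interval −0.21 to −0.0055, edgeR quasi-likelihood adjusted p = 0.0729) passed neither threshold, though its adjusted p was under 0.05 by DESeq2's Wald test (0.0436), and that interval holds no 1.5-fold difference.

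**Figure D2:**
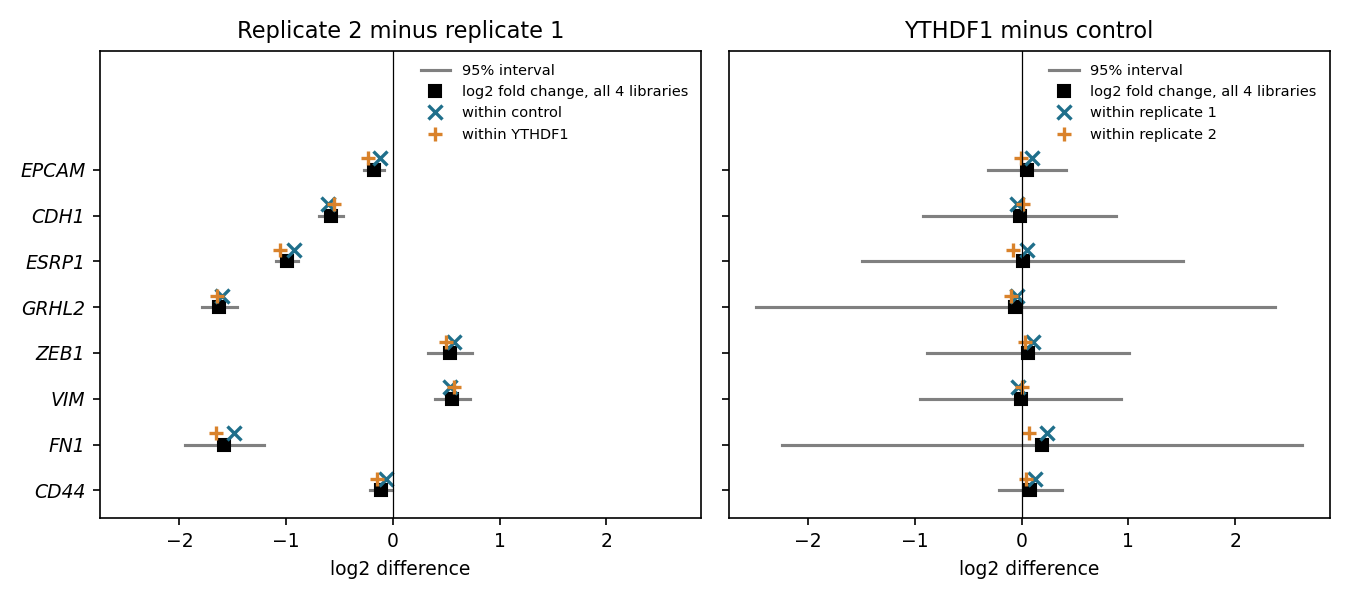
Log2 difference of the 8 tested genes between the replicate numbers (left) and between the vectors (right), on a shared axis. Squares are the log2 fold changes over all 4 libraries with their 95% intervals from edgeR's quasi-likelihood fit, and crosses and plus signs are the differences between single libraries within a vector or a number. On the left GRHL2, FN1, ESRP1 and CDH1 lie below 0 and ZEB1 and VIM above it, and on the right the squares lie between −0.059 and 0.19, with intervals that are narrowest for CD44 and EPCAM.

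Counts of 2 genes in one library share its depth and scaling, so their ratio does not depend on the normalization. For ZEB1 to GRHL2 this ratio was 0.286 in control replicate 1 and 0.318 in YTHDF1 replicate 1, against 1.29 in control replicate 2 and 1.41 in YTHDF1 replicate 2. It was 4.52-fold higher in replicate 2 within control and 4.43-fold higher within YTHDF1. The ratio of VIM to CDH1 was 0.243 and 0.244 in the control and YTHDF1 libraries of replicate 1 and 0.536 and 0.533 in those of replicate 2. The ratio of ESRP1 to GRHL2, both epithelial regulators, also differed, with 4.29 and 4.60 in replicate 1 and 6.85 and 6.92 in replicate 2. Each ratio was compared between libraries only, since the genes differ in length.

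**Figure D3:**
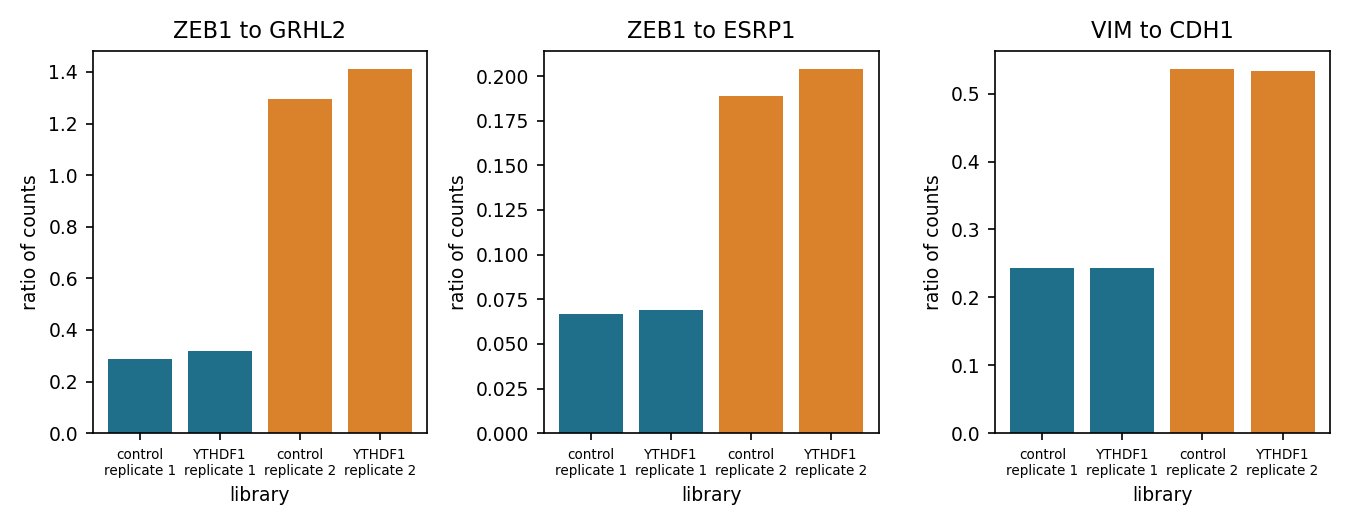
Ratio of the counts of ZEB1 to GRHL2, ZEB1 to ESRP1 and VIM to CDH1 in each library, as bars from 0, with blue for replicate 1 and orange for replicate 2. Both libraries of replicate 2 stand above both libraries of replicate 1 in each panel, and the ZEB1 to ESRP1 ratio ran from 0.0668 to 0.204.

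Whether overexpressed YTHDF1 moved these genes is the comparison of the study. None of the 8 tested genes passed the threshold taken from the study, a log2 fold change that reaches 0.5 in size with an unadjusted p under 0.05. In the fit used here that rule called 18 genes, or 0.101% of all tested genes, 0.0225% higher and 0.0787% lower. The study reports more genes at these thresholds, so the calls of this fit do not stand for those of the study. With an adjusted p in place of the unadjusted one, 0 of the 8 genes and 0% of all tested genes were called by edgeR's quasi-likelihood test. YTHDF1 itself, with a log2 fold change of 6.88 and an unadjusted p of 0.00613 by this test, was not called either. The lack of called members at the adjusted p therefore says little. Of the 8, 0 had an unadjusted p under 0.05 at any fold, against 0.135% of all tested genes. DESeq2's Wald test also called 0 of the 8. The control and YTHDF1 libraries overlapped in each of the 8 genes, whereas they did not overlap in 11.5% of all tested genes. The largest log2 fold change was that of FN1, at 0.19 (standard error 0.84), followed by CD44 at 0.082 (standard error 0.10) and ZEB1 at 0.061 (standard error 0.33). GRHL2 had −0.059 (standard error 0.84), CDH1 had −0.018 (standard error 0.31), and EPCAM, ESRP1 and VIM had 0.046, 0.0089 and −0.0092. These values do not show the genes to be unchanged, because the difference between the numbers enters the spread. The 95% interval reached from −2.49 to 2.37 for GRHL2 and from −0.92 to 0.89 for CDH1, and it was narrow only for EPCAM (−0.32 to 0.41) and CD44 (−0.21 to 0.37).

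Within a replicate number, where 1 YTHDF1 library is set against 1 control library and no test is possible, 13 of the 16 log2 differences were under 0.1 in size. The direction was the same in both numbers for 4 of the 8 genes, against 50.4% of all tested genes. FN1 differed by 0.23 within replicate 1 and 0.068 within replicate 2, CD44 by 0.12 and 0.040, ZEB1 by 0.11 and 0.030, and GRHL2 by −0.046 and −0.095. EPCAM differed by 0.096 and −0.010, ESRP1 by 0.055 and −0.082, CDH1 by −0.040 and 0.016, and VIM by −0.032 and 0.0063. In 7 of the 8 genes the smaller of the 2 differences between the numbers exceeded the larger of the 2 differences between the vectors, and CD44 was the exception. Neither this count nor that of differences under 0.1 was made over all tested genes, so neither is read as a trait of the members. In the fits over all 4 libraries, the median size of the log2 fold change over all tested genes was 0.31 between the numbers and 0.069 between the vectors. For the 8 members it was 0.57 and 0.052. The YTHDF1 libraries differed in the amount of YTHDF1, with more in replicate 1, and the part of this dose in the values was not tested.

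The partners of these genes were followed in 7 lists. The E-cadherin complex differed little between the replicate numbers while CDH1 was lower. CTNNA1 (alpha-catenin) had between 390.9 and 426.9 CPM, CTNNB1 (beta-catenin) between 417.2 and 430.2, CTNND1 (p120-catenin) between 343.0 and 365.0 and JUP (plakoglobin) between 209.2 and 228.1 CPM. Their log2 fold changes between the numbers were 0.11, 0.016, 0.057 and 0.070, all under the fold threshold. The median over the 9 adherens junction genes was 0.016, and 1 passed the threshold, beside 26.2% of all tested genes. The gene that passed was the nectin NECTIN4 (0.86, edgeR quasi-likelihood adjusted p = 4.83e-05). Of 11 other cadherins 3 were tested, with a median of −1.52. P-cadherin (CDH3) fell from 114.6 and 124.3 CPM in the control and YTHDF1 libraries of replicate 1 to 41.9 and 41.6 CPM in those of replicate 2, CDH15 was lower too (log2 fold change −2.85) and CDH12 was higher (0.82).

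Of 29 tested epithelial junction and surface genes, 10 passed the threshold as lower in replicate 2 and 2 as higher, beside 16.2% and 9.96% of all tested genes, and the median log2 fold change was −0.21. By sign alone 22 were lower and 7 were higher. The tight junction gene CLDN4 had 55.0 and 56.6 CPM in the control and YTHDF1 libraries of replicate 1 and 0.934 and 0.994 CPM in those of replicate 2. The junction scaffold TJP3 (−3.04) and the membrane protease PRSS8 (−2.37) were lower, and CLDN1 (1.52) was higher. Of 12 tested epithelial regulators 4 passed as lower and 2 as higher, by sign alone 7 and 5, with a median of −0.074. The ETS factor EHF had 51.9 and 55.4 CPM in replicate 1 and 0.176 and 0.199 CPM in replicate 2, its relative ELF3 (−3.57) and KLF4 (−2.27) were also lower, and FOXA2 (1.46) and FOXA1 (0.76) were higher. GRHL1 and GRHL3, the paralogs of GRHL2, had log2 fold changes of −0.089 and 0.0056, which did not pass.

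Genes of the mesenchymal state did not move together. Of 7 tested transition regulators, 4 passed as lower and 1 as higher, beside 16.2% and 9.96% of all tested genes. By sign alone 5 were lower and 2 were higher. The median was −0.88, and it was the same with genes at the floor set to their bound. SNAI1, the repressor SNAIL, had 8.19 and 9.26 CPM in the control and YTHDF1 libraries of replicate 1 and 3.95 and 4.17 CPM in those of replicate 2. FOXC1 (−0.88) was lower, SNAI3 (0.76) was higher, and PRRX2 had 220 and 314 counts in replicate 1 against 0 and 2 in replicate 2. ZEB2, the paralog of ZEB1, had at most 12 counts in any library and was not tested. Of 15 tested matrix and cytoskeleton genes 8 passed as lower and 3 as higher, beside the same 16.2% and 9.96%. By sign alone 8 were lower and 7 were higher, with a median of −0.51. The proteoglycan gene VCAN (log2 fold change −9.06), COL6A2 (−8.22) and S100A4 (−7.36) were lower, and COL6A3 (0.99), smooth muscle actin (ACTA2, 0.76) and the receptor kinase AXL (0.72) were higher.

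Among 12 tested partners of fibronectin and CD44, 5 passed as lower and 2 as higher, beside 16.2% and 9.96% of all tested genes. By sign alone 6 were lower and 6 were higher, with a median of −0.21. ITGA5, the alpha chain of the fibronectin receptor, had 31.5 and 34.3 CPM in the control and YTHDF1 libraries of replicate 1 and 9.57 and 10.4 CPM in those of replicate 2, so it was 3.30-fold lower, beside 2.99-fold for FN1. Moesin (MSN), which ties CD44 to actin, had 142.9 and 145.1 CPM in replicate 1 and 0.300 and 0.398 CPM in replicate 2, and its relative radixin (RDX) was 2.94-fold lower, while CD44 itself was close to its level in replicate 1. ITGA6, a chain of the laminin receptor, was 1.68-fold higher, and ITGB6 was the other gene called higher, from a level below 1 CPM. In the comparison of YTHDF1 with control, 0 genes of the 7 lists passed the unadjusted threshold, beside 0.101% of all tested genes. At so small a share this says little about the lists.

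**Figure D4:**
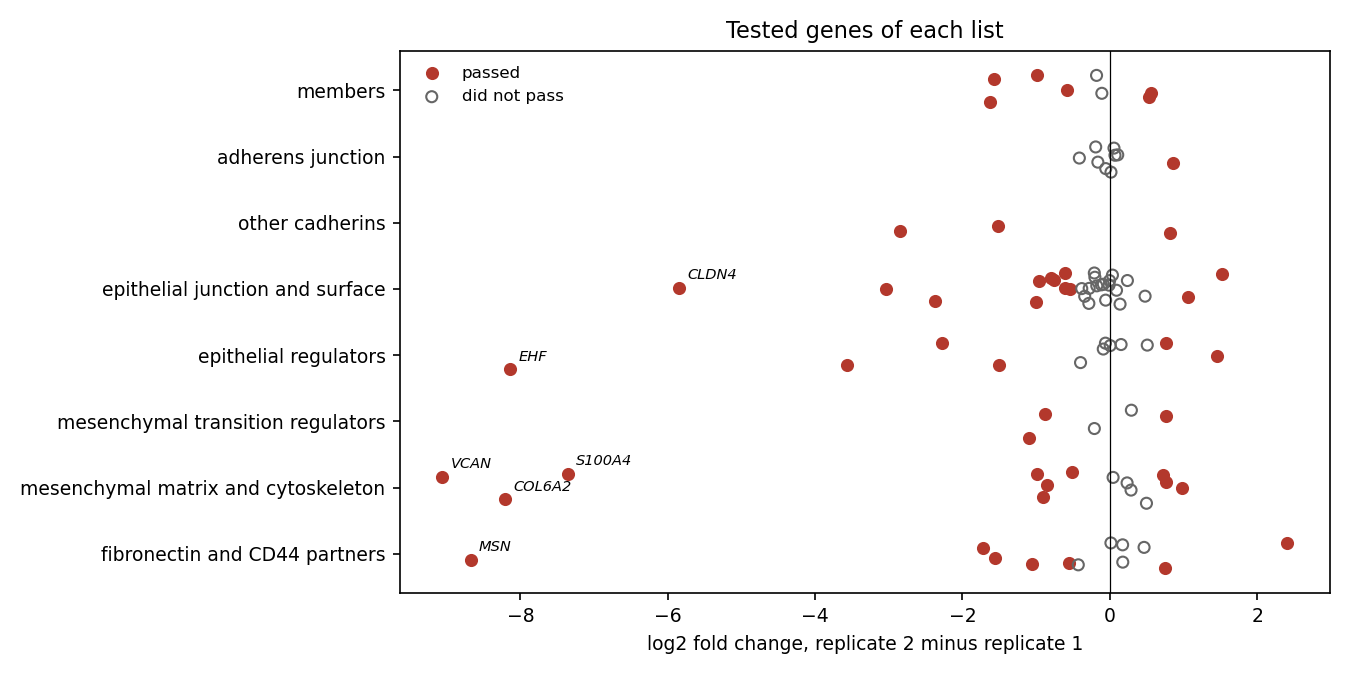
Log2 fold change between the replicate numbers of the tested genes of the 10 members and of each list, replicate 2 minus replicate 1, with filled red points for genes that passed the threshold and open points for those that did not, spread vertically at random for legibility. PRRX2, TWIST1 and MMP9 are left out because both libraries of replicate 2 had 3 counts or fewer. Most adherens junction genes lie near 0, and VCAN, MSN, COL6A2, EHF, S100A4 and CLDN4 lie below −5.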

How the data were processed

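Messenger RNA of SNU638 cells with control or YTHDF1 vector (n = 2 each, all with IFN‐γ) was measured by sequencing. The authors deposited raw counts, whole numbers of reads per gene and library, from stranded poly(A) libraries. The submitters' processing notes name Trimmomatic, HISAT2 and GRCh38. The counting tool, its strand setting and the annotation release are not given in the sources used here.

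The analysis used edgeR 4.0.16 in R 4.3.3. Genes were kept by filterByExpr (17781 genes, 8 of the 10 members), scaled by TMM and tested by the quasi-likelihood test with Benjamini-Hochberg adjustment, once by vector (the study's comparison and thresholds) and once by replicate number. The standard error was taken as the log2 fold change divided by the square root of F, without sign. Differences between single libraries are of log2 CPM with a prior count of 0.5. For a gene at 0 the floor was 3 counts, which covers counting error only because PCR reads carry no molecular identifiers. Every library stood for 1 sample. Nothing says that the replicates came from separate cultures beyond the word biological, so p-values measure the spread between these samples.

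The members and lists were chosen with earlier results of these data known. The text names all members, the catenins, ESRP2, overlapping antisense genes, and up to 3 higher and 3 lower genes per list with the largest change between the numbers among those called and reaching 1 CPM. GRHL1, GRHL3 and ZEB2, as paralogs of members, ITGB6, the keratins, PECAM1 and KDR were added after their values were seen. A gene that the rule names and the summed level of a marker list are not reported here. Alternatives were DESeq2 1.42.0 (size factors or Wald test), limma-voom (limma 3.58.1), other filters, YTHDF1 left out, the other factor as a term, and each library left out. The procedure was tested on simulated data. Promoters are RefSeq's (GRCh38.p14), and Python 3.11.15 with matplotlib 3.10.9 made the figures.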

Additional observations from a re-analysis of the deposited data

Results flagged for a closer look

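In 4 genes the YTHDF1 library was above control in one replicate number and below it in the other, and this difference between the numbers was not tested, since 1 library stands against 1. The log2 difference within replicate 2 was 0.016 for CDH1, against −0.040 within replicate 1. It was −0.010 for EPCAM, against 0.096, and −0.082 for ESRP1, against 0.055. For VIM it was 0.0063, against −0.032. All of these are under 0.1 in size.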

How the results depend on the processing

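Between the replicate numbers, the 8 tested genes kept their direction under all 8 alternatives of scaling, test, filter or vector term and with any library left out, and all but ZEB1 kept their call. The 6 called members were 5 to 6 with a library left out (5 to 7 at an unadjusted p, where SNAI2, which then enters the test, passed without YTHDF1 replicate 2). The adjusted p of EPCAM, under the fold threshold throughout, rose to 0.0670 without control replicate 2 and 0.0785 without YTHDF1 replicate 2. That of CD44, also under the fold threshold throughout, fell from 0.0729 to 0.0436 with DESeq2's Wald test, 0.0383 with at least 10 counts in every library, 0.0199 with the vector as a term in the Wald test and 0.00234 without control replicate 1. With 1 library left out, a lone sample is assumed to vary like the other group. Between the vectors, no alternative called a member. The genes called at an unadjusted p, 18 in all, were 82 without the filter on low counts, and 47 to 60 with a library left out. At an adjusted p they were 0, against 3 with DESeq2's Wald test. With the replicate number as a block they were 192 (unadjusted) and 8 (adjusted) in the quasi-likelihood test and 41 and 5 in DESeq2's Wald test, with 0 members at either threshold, though CD44 had an unadjusted p of 0.0927 and 0.0477 at its small fold. The deviations of same-numbered libraries correlated at 0.875 across genes, but with 2 pairs and no meaning given to the numbers in the labels the samples share only a number. ESRP1 turned from 0.0089 to −0.016 with limma-voom, and to −0.010 and −0.0099 with the replicate block in the quasi-likelihood and the Wald test. With a library left out the numbers are unbalanced, and the log2 fold change between the vectors ran from −0.32 to 0.32 for CDH1, from −0.073 to 0.15 for EPCAM, from −1.11 to 0.95 for GRHL2, from −0.62 to 0.54 for ESRP1, from −0.21 to 0.38 for ZEB1, from −0.33 to 0.28 for VIM, from −0.86 to 1.12 for FN1 and, with no change of sign, from 0.0082 to 0.15 for CD44. The cause of the other changes was not tested. With so few counts, SNAI2 and CDH2 are limited by depth.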
